A study of Arabidopsis thaliana with 33 samples.

Results

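Open chromatin was mapped at 5 nuclear genes of Arabidopsis thaliana that supply Rubisco and its activator. The genes are RBCS1A (AT1G67090), RBCS1B (AT5G38430), RBCS2B (AT5G38420) and RBCS3B (AT5G38410), which encode the Rubisco small subunit, and RCA (AT2G39730), which encodes Rubisco activase. They were chosen by name among 27444 protein-coding genes on chromosomes 1 to 5, and a peak was assigned to a gene when its summit, the base of highest signal, lay in the gene or within 1000 bp of either end. By this rule 159 of the 698102 listed peaks belonged to the 5 genes, 72 from DNase-seq and 87 from FAIRE-seq. The seedlings were of accession Columbia-0, 10 days old, and grown on medium with sucrose. They were untreated (control), heated at 38 °C for 6 h, kept in the cold at 4 °C for 24 h, exposed to 250 mM sodium chloride for 6 h (salt), or air dried for 1 h (drought). DNase-seq reads DNA that DNase I cuts free from accessible chromatin of isolated nuclei, and FAIRE-seq reads DNA that stays free of cross-linked protein after formaldehyde fixation.

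Rubisco fixes carbon dioxide in the Calvin-Benson cycle of the chloroplast. Its large subunit is encoded in the chloroplast genome and its small subunits by a nuclear gene family whose transcription is driven by light. Rubisco activase is an ATPase that frees the active site of Rubisco from bound sugar phosphates, and it is known as a heat-sensitive step of photosynthesis.

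DNase-seq and FAIRE-seq were each run on 3 libraries of a condition, or 2 in the case of cold. The libraries of a group are represented by 1 pooled peak list, so no replicate error exists and no test between conditions was possible. Differences below compare lists, not the spread between seedlings. The DNase-seq lists held between 45737 peaks (drought) and 70807 (control), and the FAIRE-seq lists between 63060 (cold) and 92034 (drought). Read depth per library is unknown. Each peak's fold enrichment over the local background is the authors' own value, and its place in a list is given as the share of the same list that is weaker by −log10 p. The median fold enrichment of a DNase-seq list ran from 2.17 under heat to 4.42 under drought, so fold enrichments are compared within a list only. RBCS2B and RBCS1B lie 1095 bp apart, RBCS3B and RBCS2B 2264 bp apart, and the 3 genes span 8333 bp of chromosome 5 (TAIR10). The coding sequences of these tandem copies are closely similar, reads were 50 bp long, and the sources used here do not say how reads with more than 1 match were treated. Peaks inside the RBCS genes may therefore share reads between copies.

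All 5 genes had a peak in all 10 lists, mostly inside the gene. Of all protein-coding genes, between 85.5% and 96.3% had one in a given list, so the presence of a peak was common. In control seedlings the genes held 13 DNase-seq peaks, of which 11 had the summit inside a gene, and 17 FAIRE-seq peaks, of which 11 did. Peaks covered between 28.8% of the gene (RBCS1B) and 72.0% (RBCS1A) in the control DNase-seq list, with a median of 53.1% over the 5 genes and 25.6% over all protein-coding genes. In the control FAIRE-seq list the median was 48.0%, against 17.7% over all genes. As a median over the 5 genes, the strongest peaks stood above the median of all protein-coding genes in every list. The 5 genes' median for the weaker share of the list was 97.9% in control DNase-seq and 96.4% in control FAIRE-seq, where the medians over all protein-coding genes were 82.2% and 78.0%. Single genes stood near the median of all genes in some stress lists, such as RBCS1B in salt FAIRE-seq, at 83% beside 83%.

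RBCS1A, which gives rise to much of the small subunit in leaves, held the highest ranked DNase-seq peak of the 5 genes in control. This peak, at chr1:25048812-25049518 (TAIR10), had a fold enrichment of 6.44 and ranked 46 among 70807 peaks. A second peak inside the gene, at chr1:25048362-25048741, had a fold enrichment of 5.76. Among the stresses the highest DNase-seq fold enrichment at RBCS1A was 3.77 (heat), 5.25 (cold), 4.89 (salt) and 12.6 (drought). These peaks exceeded 97.5%, 99.5%, 85.3% and 97.7% of their own lists, so RBCS1A stood lowest within the salt list. The FAIRE-seq maxima of RBCS1A were 4.47 (control), 4.28 (heat), 7.22 (cold), 4.68 (salt) and 4.02 (drought). The cold peak ranked 11 among 63060 FAIRE-seq peaks.

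The cold lists showed RBCS1A as 1 continuous open stretch. Both assays listed a single cold peak there, at chr1:25048322-25049562 over 1241 bp in DNase-seq and at chr1:25048298-25049564 over 1267 bp in FAIRE-seq. Control, salt and drought lists each showed a pair of separate peaks inside the gene in both assays, and the heat list showed 3 in DNase-seq and 2 in FAIRE-seq. Peaks covered 82.2% of RBCS1A in cold DNase-seq and 83.9% in cold FAIRE-seq, and between 49.9% and 74.7% in the other 8 lists. The gap between the peaks was closed in the lists that rest on 2 libraries, and whether the number of libraries plays a part was not tested.

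**Figure D1:**
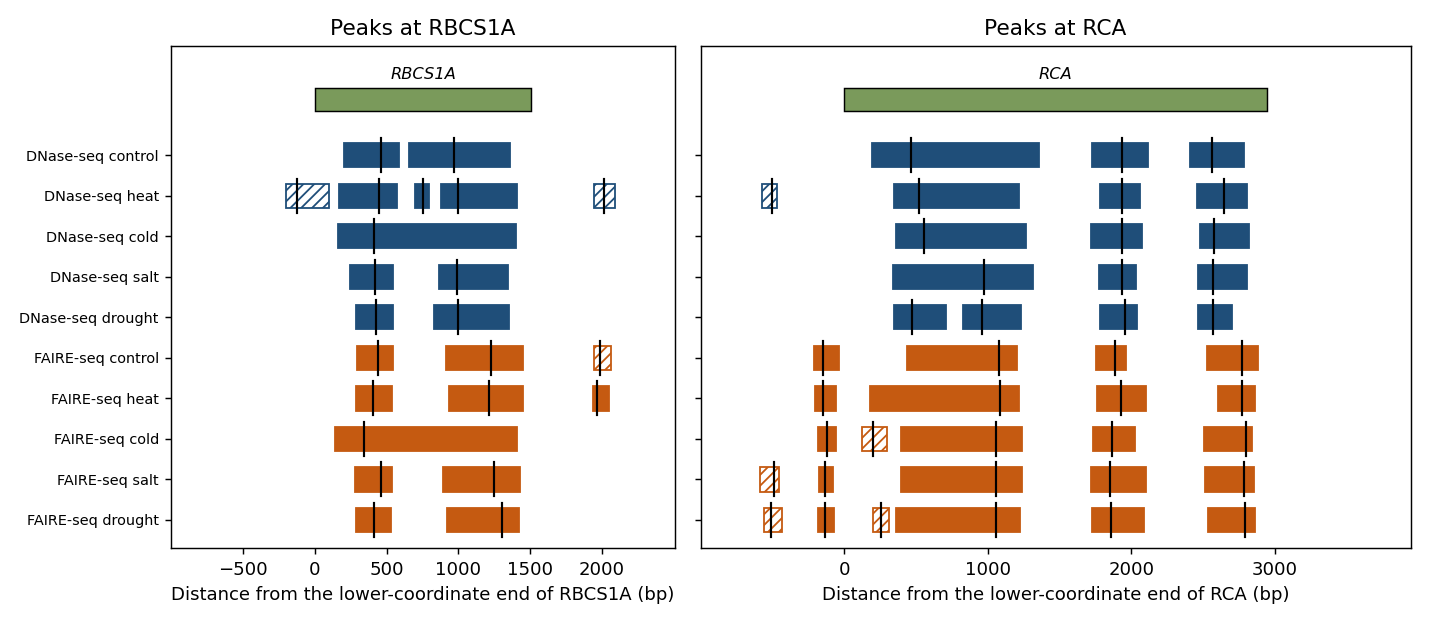
Peaks at RBCS1A (left) and RCA (right) by distance in bp from the lower-coordinate gene end, 1 row per list, with the gene as a green box, DNase-seq in blue and FAIRE-seq in orange. Black ticks are summits, and hatched peaks share no base with the control list of their assay or, in the control rows, with at least 1 stress list. The cold rows of RBCS1A show 1 peak each, and RCA shows the same 3 open regions inside the gene in all rows, the first of them in more than 1 peak in the drought DNase-seq row and in the cold and drought FAIRE-seq rows.

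The tandem genes RBCS3B, RBCS2B and RBCS1B repeated one DNase-seq layout, which RBCS1A shared. In control each of the 4 RBCS genes had exactly 2 DNase-seq summits inside the gene, 512 bp apart in RBCS1A, 589 bp in RBCS3B, 598 bp in RBCS2B and 560 bp in RBCS1B. Over the 5 DNase-seq lists, 17 of 20 combinations of gene and list had exactly 2 summits inside the gene, with spacings from 512 to 620 bp. The exceptions were RBCS1A under heat with 3 and under cold with 1, and RBCS1B under heat with 4. Where a pair was listed in control, the summit nearer the higher-coordinate end had the larger fold enrichment in each of the 4 genes. It reached 5.07 against 4.51 in RBCS3B, 4.62 against 3.68 in RBCS2B and 6.14 against 5.02 in RBCS1B.

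RBCS3B had its strongest DNase-seq peak at chr5:15378001-15378576 in control. The fold enrichment of the strongest DNase-seq peak of RBCS3B was 5.07 (control), 3.35 (heat), 4.64 (cold), 5.68 (salt) and 11.6 (drought). It exceeded between 94.5% and 99% of the peaks of each list. Below the gene, a site with summits 746 to 850 bp from its lower-coordinate end was present in all 10 lists and lies within the neighbouring gene AT5G38400.

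RBCS2B, the shortest member at 1165 bp, had a strongest DNase-seq fold enrichment of 4.62 (control), 3.12 (heat), 3.63 (cold), 5.31 (salt) and 8.26 (drought). Its strongest DNase-seq peak exceeded between 88.5% and 95.7% of the list. The heat value came from a peak between RBCS2B and RBCS1B, and the other 4 from the peak inside the gene nearer its higher-coordinate end. The peak between both genes, at chr5:15382622-15382883 in control DNase-seq, was present in all 10 lists and counts for both genes.

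RBCS1B had the second highest DNase-seq fold enrichment of the 5 genes in control, 6.14 at rank 291. Under heat, cold, salt and drought its strongest DNase-seq peak had fold enrichments of 3.57, 4.36, 5.44 and 11.2, above 91.7% to 96.1% of the lists. In FAIRE-seq RBCS1B was the least covered member in control, with 20.3% of the gene under peaks and a single summit inside it.

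**Figure D2:**
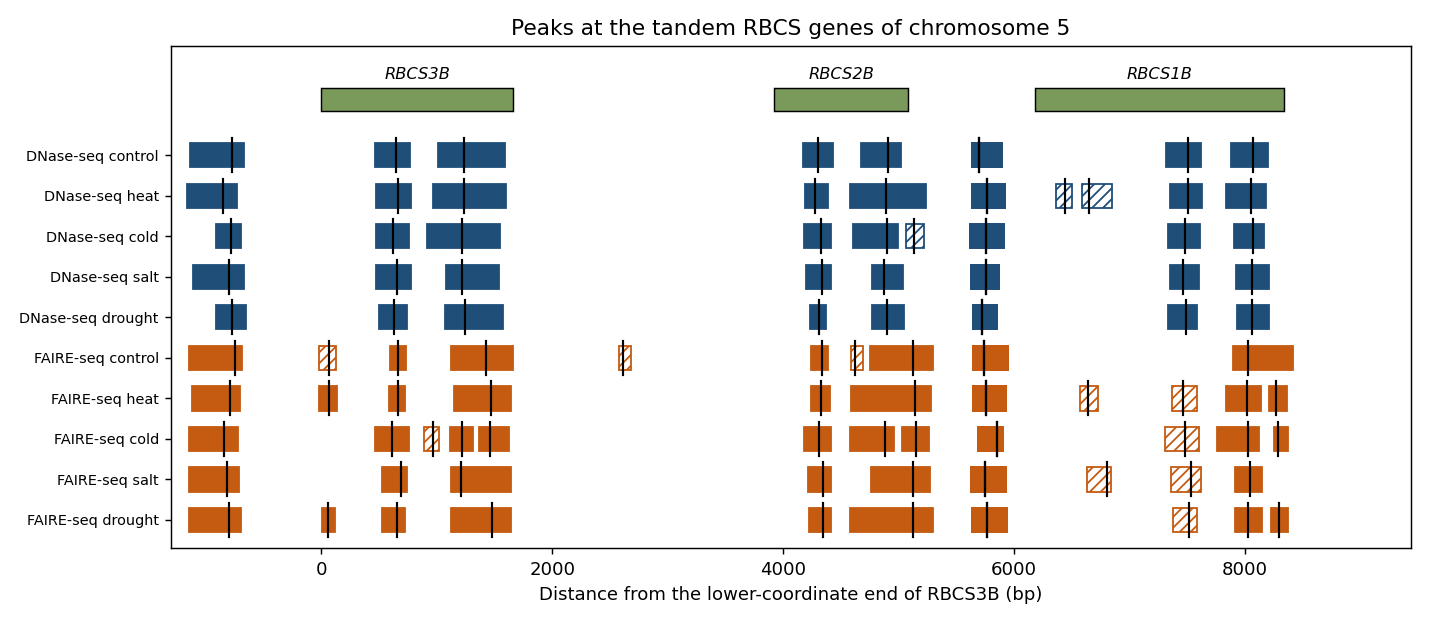
Peaks at the tandem genes RBCS3B, RBCS2B and RBCS1B by distance in bp from the lower-coordinate end of RBCS3B, 1 row per list, drawn as in the map of RBCS1A and RCA and only for summits within 1000 bp of a gene. The DNase-seq rows repeat the same pair of sites inside each gene, and the hatched FAIRE-seq peaks on the lower DNase-seq site of RBCS1B are those absent from the control FAIRE-seq list.

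RCA had the lowest ranked strongest DNase-seq peak of the 5 genes in every DNase-seq list. The strongest peak of RCA had a DNase-seq fold enrichment of 4.17 (control), 2.53 (heat), 2.96 (cold), 4.18 (salt) and 6.90 (drought). These peaks exceeded 91.2% of the control list and between 80.6% and 82.3% of the stress lists. The medians over all protein-coding genes were 82.2% in the control list and between 72.1% (drought) and 78.9% (cold) in the stress lists. In FAIRE-seq RCA stood higher, with fold enrichments of 3.36, 3.55, 4.29, 3.91 and 3.28 in control, heat, cold, salt and drought, above 95.7% to 98.5% of the lists. Inside the gene 3 regions were open in both assays in all conditions. In control they were listed at chr2:16570941-16572101, chr2:16572470-16572860 and chr2:16573159-16573528 in DNase-seq. A further FAIRE-seq site below the gene, with summits 117 to 149 bp from its lower-coordinate end, was present in all 5 FAIRE-seq lists and in 0 DNase-seq lists. It falls in the neighbouring gene AT2G39725, which overlaps the end of RCA by 3 bp.

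**Figure D3:**
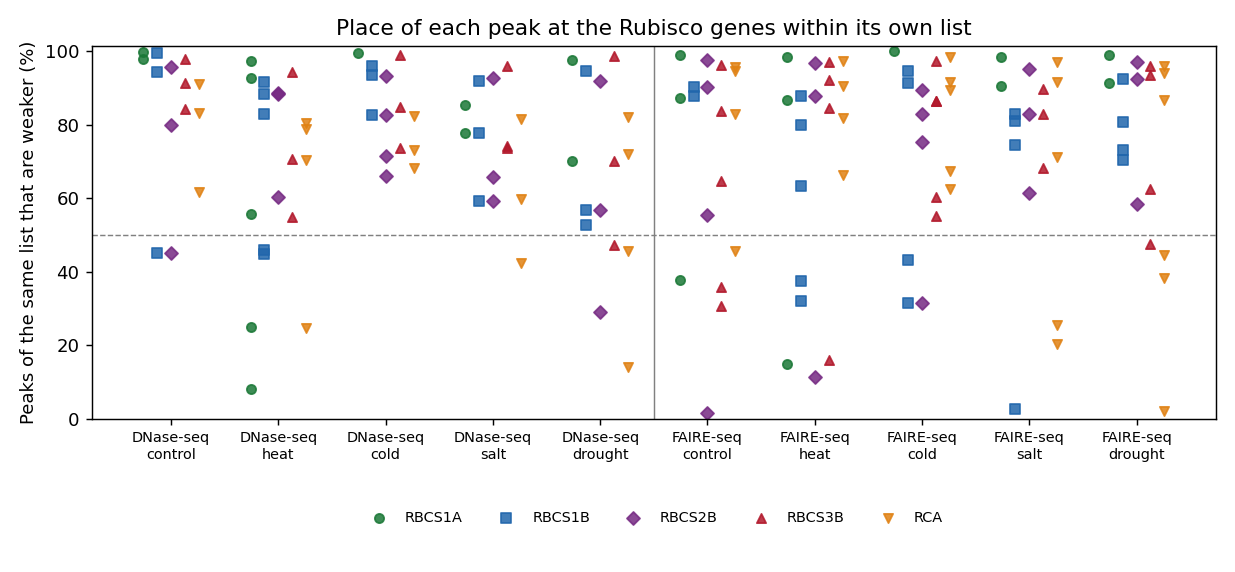
Share of the same list (%) that is weaker, for each peak of the 5 genes, 1 column per list and 1 symbol per gene, with a dashed line at 50%. Most peaks lie above the line. The highest peak belongs to RBCS1A in every column except salt and drought DNase-seq, where it belongs to RBCS3B.

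The assays placed the open site near the higher-coordinate gene end at different positions. At this site the control FAIRE-seq summit lay 257 bp above the DNase-seq summit in RBCS1A, 223 bp in RBCS2B, 191 bp in RBCS3B and 213 bp in RCA, toward the gene end. RBCS1B differed in the FAIRE-seq peak that overlapped the site, whose summit lay on the other side of the DNase-seq summit by 22 to 46 bp in all 5 conditions. Under heat, cold and drought RBCS1B had a further FAIRE-seq peak toward the gene end, with its summit 61, 47 and 35 bp inside that end. That peak did not overlap the control DNase-seq peak of the site and was left out of this comparison. In RBCS2B the FAIRE-seq summit lay outside the gene, 43 bp beyond its end in control, 55 bp under heat, 45 bp under salt and 38 bp under drought. Its DNase-seq summit lay 180 to 211 bp inside the gene in all 5 conditions.

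In the cold FAIRE-seq list this stretch was divided differently. RBCS2B kept a summit at its usual place, 1228 bp above the lower-coordinate end against 1202 to 1219 bp in the other conditions, and a separate cold peak had its summit at 960 bp, 20 bp from the DNase-seq summit. RBCS3B kept a cold summit at 1460 bp, and a separate, stronger cold peak had its summit at 1213 bp, 1 bp from the DNase-seq summit. The salt FAIRE-seq list had a single peak there in RBCS3B, with its summit 8 bp from the DNase-seq one. RBCS1A gives no value for this site in cold, since the single peak of each assay had its summit at the lower site, 1094 and 1166 bp from the higher-coordinate end. RCA had an offset of 228 bp in cold. Each position comes from 1 pooled list, so its error is unknown.

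**Figure D4:**
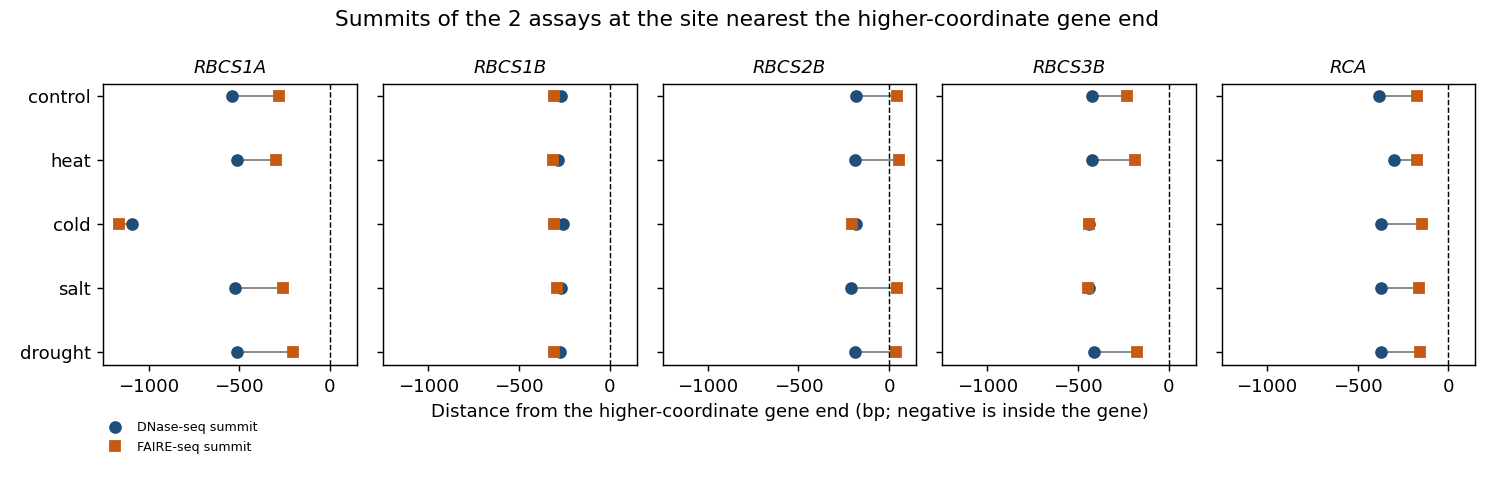
Distance in bp of the DNase-seq summit (blue circle) and the FAIRE-seq summit (orange square) from the higher-coordinate gene end, at the site nearest that end, for each gene and condition, negative inside the gene. Where several peaks overlapped the control DNase-seq peak of the site, the one with the highest fold enrichment is drawn. Further RBCS1B FAIRE-seq peaks nearer the gene end under heat, cold and drought did not overlap it and are not drawn. The FAIRE-seq summit lies nearer the gene end in control in all genes but RBCS1B, and the cold points of RBCS1A are those of the merged peaks, whose summits lie at the lower site.

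Most DNase-seq peaks at the genes overlapped a FAIRE-seq peak of the same condition. In control 12 of 13 did so by 1 base or more, and 60.3% of all control DNase-seq peaks did. Under cold, salt and drought all DNase-seq peaks at the genes did (13, 13 and 14), against 65.3%, 89.5% and 86.4% of all DNase-seq peaks. Under heat 15 of 19 did, below the 82.2% of the whole heat list. The 4 others were among the 5 heat peaks described next or lay inside RBCS1A. Most DNase-seq peaks at the genes were stronger than the middle of their lists, and no overlap was computed for peaks of like strength. The overlap is therefore not read as a trait of these genes.

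For each stress, a stress peak with no base in common with a control peak of its assay is called gained, and a control peak with none in common with a stress peak is called lost. Of the 13 control DNase-seq peaks, 0 were lost under heat, cold, salt or drought, where 39.5%, 25.0%, 22.4% and 40.9% of all control DNase-seq peaks were lost. In the same order 53.8%, 42.2%, 48.2% and 62.1% of all protein-coding genes lost at least 1 DNase-seq peak, and 0 of the 5 genes did. Strong peaks were lost less often in general. Of all control DNase-seq peaks at least as strong by −log10 q as the weakest of the 13, 20.9%, 7.82%, 4.59% and 11.2% were lost. This bound is loose, since 38937 of the 70807 control peaks passed it and 8 of the 13 stood in the top 10% of the list. No share was computed for peaks as strong as most of the 13, so the 0 losses are not read as a trait of these genes under any stress. With summits within 150 bp as the rule for a shared peak, 1 of the 13 was lost under cold and 1 under salt.

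Heat brought 5 gained DNase-seq peaks at 3 of the 5 genes, which is 26.3% of their 19 heat peaks, near the 24.1% of the whole heat list. At least 1 gained DNase-seq peak was found under heat in 45.0% of all protein-coding genes. At RBCS1A one lay across the lower-coordinate gene end at chr1:25047959-25048256 with a fold enrichment of 1.70, above 8.02% of the heat list. Another lay above the gene at chr1:25050106-25050252 with 2.24, and this site was already listed in the control and heat FAIRE-seq lists. RBCS1B gained a pair inside the gene, at chr5:15383347-15383489 and chr5:15383573-15383836, above 45.9% and 44.8% of the heat list. The second of them overlapped peaks gained in the heat and salt FAIRE-seq lists. RCA gained a weak peak at chr2:16570175-16570279 with a fold enrichment of 1.73, and the salt and drought FAIRE-seq lists had peaks at the same place. The 5 peaks exceeded between 8.02% and 55.7% of the heat list, so none stood among its stronger peaks.

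The other stresses brought 1 gained DNase-seq peak in all. Cold gave RBCS2B a peak across its higher-coordinate end, at chr5:15382047-15382206, with a fold enrichment of 2.76, above 71.5% of the cold list. Over all peaks of the cold list 12.0% were gained, and 28.2% of all genes gained at least 1. This stretch was within a FAIRE-seq peak in all 5 conditions and within the broad heat DNase-seq peak. Salt and drought brought 0 gained DNase-seq peaks at the 5 genes, where 3.10% and 2.12% of all peaks were gained and 3.21% and 3.36% of all genes gained 1, so 0 lies near the background.

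In FAIRE-seq the clearest gain was in RBCS1B. A site inside the gene with summits 1287 to 1352 bp above its lower-coordinate end was absent from the control FAIRE-seq list and present in all 4 stress lists. Its fold enrichment was 2.47 (heat), 4.09 (cold), 3.06 (salt) and 2.60 (drought), above 63.3%, 94.7%, 74.4% and 70.5% of those lists. The 4 comparisons share the control list, so a single missing control peak sets all 4 gains. The same site was a DNase-seq peak in all 5 conditions, control included, with a control fold enrichment of 5.02.

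Heat gave 2 gained FAIRE-seq peaks, both in RBCS1B, and 0 lost ones. Over all lists 24.8% of heat FAIRE-seq peaks were gained and 8.05% of control FAIRE-seq peaks lost, and 54.9% and 20.1% of all genes had one. The second heat peak of RBCS1B lay at chr5:15383560-15383717 with a fold enrichment of 2.14, on a DNase-seq peak that heat also brought. RBCS1B was thus 1 of 5 genes with a gained peak in both assays under heat, where 27.5% of all genes had one, and 0 of the 5 did under the other stresses.

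Cold gave 3 gained FAIRE-seq peaks, 1 each in RBCS1B, RBCS3B and RCA, and 3 lost ones, at RBCS1A and RBCS3B. The whole lists had 15.7% gained and 29.0% lost, and 31.8% and 56.9% of all genes had one. The RCA peak, at chr2:16570871-16571040, had a fold enrichment of 3.10 and exceeded 89.5% of the cold list. It overlapped the control DNase-seq peak of RCA, and heat and drought FAIRE-seq peaks reached the same bases. The strongest lost peak lay across the lower-coordinate end of RBCS3B at chr5:15376969-15377114, with a control fold enrichment of 2.75, above 83.8% of the control FAIRE-seq list. It was lost under cold and under salt, and was present under heat with 3.19 and under drought with 2.39. No DNase-seq list had a peak there.

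Salt gave 3 gained FAIRE-seq peaks, 2 in RBCS1B and 1 at RCA, and 3 lost ones, 1 each at RBCS1A, RBCS2B and RBCS3B. Of all peaks 34.9% were gained and 12.8% lost, and 64.1% and 30.7% of all genes had one. The lost RBCS2B peak, with a fold enrichment of 1.67, exceeded 1.55% of the control FAIRE-seq list. Drought gave 3 gained FAIRE-seq peaks, 1 in RBCS1B and 2 at RCA, and 1 lost one at RBCS1A, where 33.9% and 10.3% of all peaks and 65.4% and 25.5% of all genes were gained and lost. The peak lost at RBCS1A, above the gene at chr1:25050104-25050224, had a control fold enrichment of 2.12 and was lost under cold, salt and drought alike. Summed over the stresses, 11 of 70 FAIRE-seq peaks at the genes were gained and 7 of 68 comparisons of a control peak with a stress list were losses. Under heat, cold, salt and drought, 24.8%, 15.7%, 34.9% and 33.9% of all FAIRE-seq peaks were gained. Of all control FAIRE-seq peaks 8.05%, 29.0%, 12.8% and 10.3% were lost. The sums count some sites more than once, such as this RBCS1A peak and the RBCS1B site absent from the control list.

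Genes of the same pathway were counted in the same way. A gene counts for both assays when each assay called a peak in its window, whether or not at the same place. Where values of both assays are given below for TKL1, SBPase, CPN60B1 or GLK2, the DNase-seq and FAIRE-seq peaks did not overlap. Of the 18 listed genes of the Calvin-Benson cycle, such as PRK, GAPA-1 and SBPase, a DNase-seq peak was lost in 9 (heat), 8 (cold), 9 (salt) and 12 (drought). These are 50%, 44.4%, 50% and 66.7% of the list, beside the 53.8%, 42.2%, 48.2% and 62.1% of all genes. DNase-seq peaks were gained in 9, 10, 1 and 3 of them, or 50%, 55.6%, 5.56% and 16.7%, beside 45.0%, 28.2%, 3.21% and 3.36% of all genes. In FAIRE-seq 12, 13, 9 and 8 of the 18 lost a peak, or 66.7%, 72.2%, 50% and 44.4%, beside 20.1%, 56.9%, 30.7% and 25.5% of all genes. FAIRE-seq peaks were gained in 9, 7, 9 and 10 of them, or 50%, 38.9%, 50% and 55.6%. Of all genes 54.9%, 31.8%, 64.1% and 65.4% gained a FAIRE-seq peak. TKL1 (transketolase) gained a peak in both assays under cold, with fold enrichments of 2.59 in DNase-seq and 2.01 in FAIRE-seq, and under drought both gained and lost one in both assays. SBPase (sedoheptulose-bisphosphatase) gained a peak in both assays under cold, with 2.01 and 2.32, and under heat, above 50.7% and 34.3% of the DNase-seq and FAIRE-seq heat lists. Of all genes 10.5% gained a peak in both assays under cold and 27.5% under heat. PGK1 (phosphoglycerate kinase) lost a peak in both assays under heat, salt and drought, as did 12.1%, 15.9% and 16.3% of all genes.

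Among 10 genes of Rubisco assembly, 3 lost a DNase-seq peak under heat and under cold, and 5 under salt and under drought, shares of 30% and 50%. Of all genes 53.8%, 42.2%, 48.2% and 62.1% lost one under heat, cold, salt and drought. DNase-seq peaks were gained in 5, 2, 0 and 0 of the 10, beside 45.0%, 28.2%, 3.21% and 3.36% of all genes. In FAIRE-seq 2, 7, 3 and 3 of the 10 lost a peak, beside 20.1%, 56.9%, 30.7% and 25.5% of all genes. FAIRE-seq peaks were gained in 3, 3, 5 and 4 of the 10, beside 54.9%, 31.8%, 64.1% and 65.4% of all genes. CPN60B1, a subunit of the chloroplast chaperonin that folds the large subunit, had peaks in both directions. It lost a peak in both assays under cold, salt and drought, as did 26.1%, 15.9% and 16.3% of all genes. It gained one in both assays under heat and under cold, as did 27.5% and 10.5% of all genes. Its strongest control peaks lost under cold had fold enrichments of 3.23 in DNase-seq and 2.28 in FAIRE-seq, above 61.7% and 62.8% of the control lists. The cold peaks it gained had 1.65 and 2.05, above 0.123% and 20.1% of the cold lists, so both were weak. Of 5 light regulators, a DNase-seq peak was lost in 4 (heat), 4 (cold), 3 (salt) and 2 (drought). These are 80%, 80%, 60% and 40% of the list, beside 53.8%, 42.2%, 48.2% and 62.1% of all genes. DNase-seq peaks were gained in 4, 4, 0 and 0 of them, beside 45.0%, 28.2%, 3.21% and 3.36% of all genes. In FAIRE-seq 3 of the 5 lost a peak under each stress, and 2, 1, 4 and 2 gained one, beside the FAIRE-seq shares of all genes given above. With 5 genes, 1 gene is 20% of the list. GLK2, a transcription factor that activates nuclear genes for photosynthesis, lost peaks in both assays under heat, cold and salt. Of all genes 12.1%, 26.1% and 15.9% did so. The GLK2 peaks lost under heat had control fold enrichments of 3.74 and 3.08. Other light regulators went both ways. HYH and HY5 gained a peak in both assays under heat, as did 27.5% of all genes, and HYH also lost one in both. GBF1 lost a peak in both assays under every stress, where 12.1%, 26.1%, 15.9% and 16.3% of all genes did. Under cold GBF1 also gained one in both, as did 10.5% of all genes.

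The 14 LHCB genes, which encode light-harvesting proteins of photosystem II, lost a DNase-seq peak in 2 cases (heat), 2 (cold), 3 (salt) and 5 (drought), as shares from 14.3% to 35.7%. DNase-seq peaks were gained in 7, 3, 0 and 0 of them. Of all genes 53.8%, 42.2%, 48.2% and 62.1% lost a DNase-seq peak, and 45.0%, 28.2%, 3.21% and 3.36% gained one. In FAIRE-seq 0, 5, 3 and 2 of the 14 lost a peak, beside 20.1%, 56.9%, 30.7% and 25.5% of all genes. FAIRE-seq peaks were gained in 6, 5, 7 and 7, beside 54.9%, 31.8%, 64.1% and 65.4% of all genes. The strongest control DNase-seq peak of the LHCB genes exceeded a median of 87.9% of the list, that of the Calvin-Benson genes 94.1% and that of the 5 Rubisco genes 97.9%. The light regulators stood at 97.4%, close to the Rubisco genes, and the genes of Rubisco assembly at 81.2%. In some lists the light regulators stood above the Rubisco genes, such as salt FAIRE-seq, at 96.6% beside 95.1%. In others they stood below, such as salt DNase-seq, at 90.8% beside 91.9%. With 1 list per group these differences between gene lists were not tested.

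Likeness to the 5 genes was measured over the 10 lists as the Euclidean distance in the weaker share of each list for a gene's strongest peak. Nearest to RBCS1A was PSBQ-2 (AT4G05180), which encodes a subunit of the oxygen-evolving complex of photosystem II, at a distance of 3.33 percentage points, followed by BEH3 at 3.96 and HHP3 at 4.36. Nearest to the tandem genes, represented by the strongest peak of the 3, were AT5G48900 at 4.00, AT1G13360 at 4.35 and EIF2 (AT2G39990) at 4.46. AT4G40040, at 4.61, AT1G73760, also at 4.61, and AT3G03620, at 5.45, were nearest to RCA. At least as high in every list as the lowest value of the tandem genes, 94.5%, stood 292 of 27435 genes outside their windows. In every list 1978 reached the lowest value of RBCS1A, 85.3%, and 3161 that of RCA, 80.6%. The tandem value is the highest over 3 gene windows, where every other gene has 1 window. The count of 292 is therefore not comparable with the other 2 and does not describe a single tandem gene. RBCS1B alone stood at 83% in salt FAIRE-seq.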

How the data were processed

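The data were 10 deposited peak lists. Per the labels, a list stands for every library of 1 condition in 1 assay. TAIR10, Bowtie2, SAMtools and MACS2 are named, per the submitters' processing notes, with no settings. The pooling of libraries and the handling of duplicates and cut sites are not given there. The deposited lists give a fold enrichment (a ratio) per peak, −log10 of p and of q, and a summit offset in bases, as the authors' peak caller wrote them. A deposited score, which rescales −log10 q to whole numbers, was not used. The 5 RNA samples were not analysed here.

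Gene positions came from RefSeq's TAIR10.1 table, without strand. As a check, moving genes by up to 1000 bp in steps of 100 bp placed most strong control DNase-seq summits inside genes at 0 bp on all 5 chromosomes (93.4% to 95.1%). All 5 members and all listed genes matched the table. Peaks were compared with Python 3.11.15 and pandas 2.3.3, and 1 shared base made 2 peaks the same. Steps were tested on simulated data. Members, lists and windows were chosen with earlier results of these data known. Every peak of the 5 members was eligible for naming, and pathway genes were named from those gained or lost in both assays under the same stress, at most 4 per list, direction and stress ordered by gene identifier; the examples printed were picked from these with their values known. Site positions near gene ends, summit spacings and overlaps between assays were described after the values were seen. A planned motif search was not run, since no sequence was used here.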

Additional observations from a re-analysis of the deposited data

How the results depend on the processing

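Each count of gained or lost peaks at the 5 genes, per stress and assay, was repeated under 7 alternatives, and 98 of 112 values stayed within 1.5 times the reported count. With −log10 q of at least 5 in both lists, 1 FAIRE-seq peak was lost under heat instead of 0, and in lists of equal length (45737 and 63060 peaks) 3 were lost and the gained salt FAIRE-seq peaks fell from 3 to 1. With a window of 500 bp the gained heat DNase-seq peaks were 3 instead of 5, and with 2000 bp 1 DNase-seq peak was lost under drought. Matching summits within 150 bp in place of shared bases moved most: 1 DNase-seq peak was lost under cold and under salt and 1 was gained under salt and under drought, each instead of 0. In FAIRE-seq that rule gave 6 gained under cold, and losses of 2 (heat), 5 (cold), 5 (salt) and 3 (drought). The loss of 0 DNase-seq peaks thus held under 5 of the 7 alternatives for all 4 stresses. The cause of each change was not tested. No paired analysis was possible because each group has 1 pooled list, and for the same reason no replicate could be left out. Depth is unknown, so a missing peak may lie just below the authors' threshold.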

Other observations

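A further open site lay between RBCS3B and RBCS2B, with summits more than 1000 bp from either gene and so outside the counts of the report. A control FAIRE-seq peak at chr5:15379569-15379668, counted for RBCS3B as lost under cold, overlapped the control DNase-seq peak of this site. The summits of the site stood 1177 to 1254 bp above RBCS3B, within the long noncoding RNA gene AT5G05725. The control lists had it at chr5:15379616-15379917 (DNase-seq, fold enrichment 2.77) and chr5:15379758-15379944 (FAIRE-seq, 2.23). DNase-seq and FAIRE-seq values were 2.42 and 2.53 for heat, 2.16 and 2.25 for cold, and 3.07 and 3.23 for salt. The drought FAIRE-seq list had it with 2.61, and the drought DNase-seq list had no summit between the gene windows. In the salt lists it exceeded 47.1% of DNase-seq peaks and 85.2% of FAIRE-seq peaks.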
